A study of Mus musculus with 3 samples.

Results

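Cxcl1, Cxcl2, Cxcl12, Cxcl16 and Cx3cl1 encode chemokines, and Cxcr2, Cxcr4, Cxcr6, Ackr3 and Cx3cr1 encode receptors that bind them. These 10 genes were taken by symbol from the 32285 genes counted in single-cell libraries of mouse glomeruli, and all 10 were found. Glomeruli came from control mice and from MRL/lpr mice that were left untreated or received hUC-MSCs (human umbilical cord mesenchymal stem cells), with 1 library per condition. MRL/lpr mice carry the lpr mutation of Fas, the gene of a death receptor, and develop lupus nephritis, an immune injury of the glomerulus. The MRL/lpr mice were females bought at 6 to 8 weeks of age and studied from about 16 weeks, when nephritis had set in. The treated mice, whose library is called the treated library, received 800000 hUC-MSCs through the tail vein, and the study describes the glomeruli of MRL/lpr mice as those at 21 days. The study's control mice are MRL/MpJ females in its other experiments, but for the single-cell libraries the strain and age of the control mice, the number of mice behind each library and whether mice were pooled were not stated in the sources used here. Disease, strain, treatment, preparation and library therefore cannot be told apart, no difference between conditions has a replicate check, and no p-value is given.

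Chemokines are small proteins that draw leukocytes along a gradient by binding receptors coupled to G proteins, and CXCL1 and CXCL2 act on neutrophils through CXCR2. CXCL12 binds CXCR4, which holds leukocytes in marrow and tissue, and ACKR3, an atypical receptor that takes CXCL12 up and clears it. CXCL16 and CX3CL1 (fractalkine) are made on membrane stalks that the proteases ADAM10 and ADAM17 can cut, and bind CXCR6 on T cells and CX3CR1 on the patrolling monocytes that crawl along the endothelium.

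Cxcl1 and Cxcl2 are neighbours on the plus strand of chromosome 5 in the build GRCm38 (mm10), at chr5:90891241-90893115 and chr5:90903871-90905938. Their upstream regions are shown because both genes were counted in the same mesangial cells and both were lower in the treated library. The 250 bases before the start of each gene (RefSeq, GRCm38.p6, the last of them inside the GENCODE gene models) lie at chr5:90890995-90891244 and chr5:90903649-90903898, plus strand. Capitals mark GGGAATTTCCCTGG, the longest run of letters that both regions share, 14 bases, which holds a form of the site that NF-kB proteins bind.
Cxcl1: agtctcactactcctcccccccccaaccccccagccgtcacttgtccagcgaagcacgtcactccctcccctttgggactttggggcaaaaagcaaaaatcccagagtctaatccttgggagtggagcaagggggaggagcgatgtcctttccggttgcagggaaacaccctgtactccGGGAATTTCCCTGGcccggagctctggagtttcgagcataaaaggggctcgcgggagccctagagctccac
Cxcl2: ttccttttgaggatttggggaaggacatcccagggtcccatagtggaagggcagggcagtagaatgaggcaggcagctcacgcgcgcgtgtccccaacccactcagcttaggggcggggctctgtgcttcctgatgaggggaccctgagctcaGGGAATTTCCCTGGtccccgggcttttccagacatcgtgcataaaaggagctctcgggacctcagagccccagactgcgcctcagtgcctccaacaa
The match lay 71 to 58 bases before the RefSeq start of Cxcl1 and 97 to 84 bases before that of Cxcl2. These starts lie inside the GENCODE models given above, further in for Cxcl2, so distances from the GENCODE starts would differ. Among upstream regions of the same length, 2 of 32851 (0.00609%) held this run on either strand. RefSeq sequence was at hand for 9 of the 10 genes, all but Cxcl16, and 2 of those 9 held the run, as its choice required. TATAAA, the core of the TATA box, was in the regions of Ackr3, Cx3cl1 and Cxcr4 and in 12.4% of all regions. A match is a description of sequence only.

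Each library was a matrix of UMIs, which count single RNA molecules, with 94903163, 103319588 and 90812138 UMIs in the control, MRL/lpr and treated libraries. Barcodes with at least 1000 UMIs and at most 10% of them from mitochondrial genes were kept as cells, which left 11018, 14109 and 16586 cells with median depths of 5069, 3716 and 2727 UMIs. About 8000 captured cells are stated in the protocol, which does not say whether this was per library. The study's limits of 200 to 3000 genes would leave 8404, 12062 and 14815 of the cells used here. Its further limit of 5% ribosomal UMIs would leave 499, 886 and 536, and was not applied. Cells were put in classes by marker genes, none of them a member, and each class is called "-like" for that reason. No class had a marker list at 0, while 416, 1517 and 3950 cells met no marker rule. Between 35 and 61 cell barcodes were common to any pair of libraries. Fas, the gene of the lpr mutation, stood at 381, 437 and 447 CPM in endothelial-like cells, and its UMIs do not check the labels.

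Levels are given as CPM, the UMIs of a gene in each 1000000 UMIs of a class in a library, in classes of at least 20 cells. Values in parentheses after a level, a share of cells or a log2 ratio are exact 95% Poisson, binomial and conditional binomial intervals, which cover counting error only. Barcodes with 1 to 100 UMIs, which hold RNA that leaked from broken cells, served as empty droplets. Levels of the members are set beside theirs, while most levels of other genes are given without this comparison. Free RNA was estimated, from the markers of other classes, at 4.27%, 10.5% and 8.303% of the UMIs of endothelial-like and 4.44%, 11.1% and 12.6% of those of mesangial-like cells, so a level below that of empty droplets is not for that reason all free RNA. Since depth differed, the share of cells holding a UMI stands beside its value in cells thinned at random to 1000 UMIs. A level falls both when fewer cells of a class use a gene and when each cell holds less of its RNA.

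The genes were highest in different classes. Among whole classes, Cxcl1 was highest in mesangial-like cells, Cxcl2 in neutrophil-like cells, and Cxcl12 and Ackr3 in podocyte-like cells. Cx3cl1 was highest in endothelial-like cells and Cxcl16 in macrophage-like cells where those were captured. Among receptors, Cxcr2 lay above empty droplets in neutrophil-like cells alone and Cxcr6 in T cell-like cells alone, Cxcr4 was spread over the immune classes, and Cx3cr1 was highest in patrolling monocyte-like cells. The heat map gives the levels by class. Macrophage-like cells numbered 5 in the control library, so no level is given for them there.

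**Figure D1:**
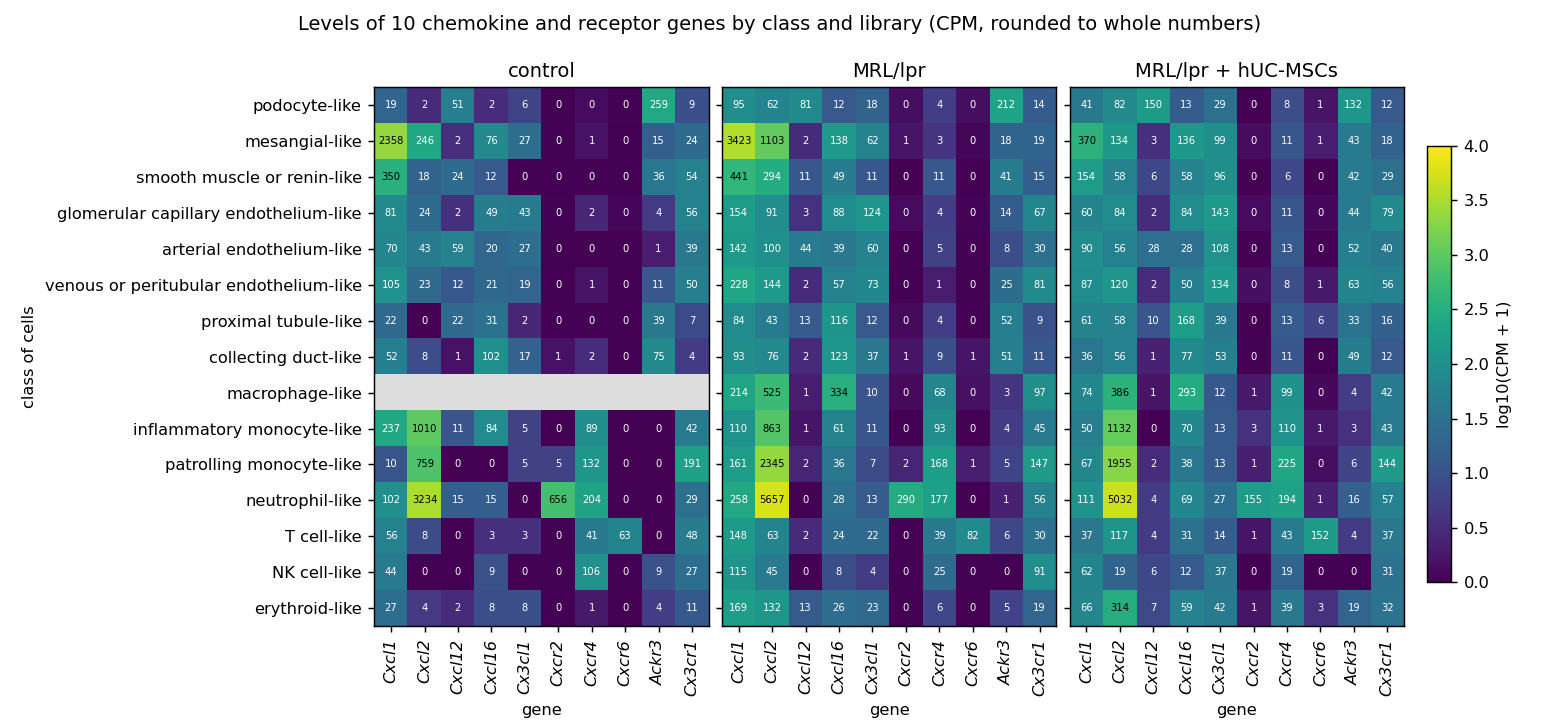
Level of each gene (columns) in each class (rows) of the 3 libraries, in CPM printed to whole numbers and coloured as log10(CPM + 1); grey marks classes under 20 cells. Cxcl1 is highest in the mesangial-like row of every panel, Cxcl2 and Cxcr2 in the neutrophil-like row and Ackr3 in the podocyte-like row.

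Cxcl1 encodes a neutrophil chemoattractant. In mesangial-like cells, the contractile support cells between glomerular capillaries, its level was 2358 (2335 to 2381) CPM in the control library, 3423 (3387 to 3459) in the MRL/lpr library and 369.6 (359 to 381) in the treated library. Over the whole class the treated library was thus the lowest and the MRL/lpr library the highest, with no overlap of intervals. This order of the treated and control libraries did not hold among cells with few UMIs from stress genes, as given below. The log2 ratio was 0.54 (0.52 to 0.56) for MRL/lpr over control and -3.21 (-3.26 to -3.17) for treated over MRL/lpr, a 9.26-fold lower level in the treated library. A Cxcl1 UMI was found in 78.1%, 94.5% and 61.6% of mesangial-like cells (median depths 9976, 3836 and 4429 UMIs), and in 59.2%, 84.2% and 25.5% once thinned. Podocyte-like cells, taken as a class without the gene, had one in 1.23%, 10.5% and 7.36% when thinned (unthinned 8.67%, 31.9% and 15.1%, median depths 6806, 7053 and 4832 UMIs). Mesangial-like cells held 88.03%, 65.1% and 46.5% of all Cxcl1 UMIs, and were the only class whose interval lay above empty droplets (492, 428 and 200.1 CPM) in each library.

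Next in order among whole classes came smooth muscle or renin-like cells, the class nearest to mesangial cells. They stood at 349.9 (266 to 452) CPM in the control library, 441 (365 to 529) in the MRL/lpr library and 154 (114 to 204) in the treated library. In the MRL/lpr and treated libraries this interval held the level of empty droplets, and in the control library it lay below it. Cd5l macrophage-like cells, a part of the macrophage-like class, stood at 222 (161 to 299) CPM in the treated library, from 26 cells. Endothelial-like cells were lower again, at 82.3, 171 and 71.7 CPM. Their log2 ratios, 1.05 (0.98 to 1.13) for MRL/lpr over control and -1.25 (-1.34 to -1.16) for treated over MRL/lpr, had the same signs as in mesangial-like cells but concern levels under those of empty droplets.

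In a clustering of the cells of all libraries, mesangial-like cells lay in different clusters. Cluster 0, which lists Cxcl1 itself among its leading genes, held 77.1% of them in the control library and 83.1% in the MRL/lpr library, while clusters 16 and 14 held 60.1% and 29.7% in the treated library. Clusters 14 and 16 stayed unnamed, and their first leading genes were Cxcl9 and Brinp1. Col3a1, Cdh11, Frzb and Aldh1a2 were leading genes of both. In these clusters 1101 of 1379 and 1219 of 1372 cells came from the treated library. All 7 stromal markers summed to 109, 150.1 and 341 CPM in mesangial-like cells, with 2, 1 and 0 of the 7 at 0, against 1090.2, 973 and 1001 in empty droplets. In mesangial-like cells without any stromal marker UMI, Cxcl1 stood at 2005, 3271 and 352 CPM in 451, 987 and 600 cells, so the order of the libraries was the same. A shallow cell can lack such a UMI and the choice was not made by cluster, so it does not check the make-up of the class.

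Immediate-early and heat shock genes, which rise in many cells while tissue is digested, also differed between the libraries. A list of 11 such genes (Fos, Jun, Egr1, Hspa1a and others) summed to 38999.5, 27675 and 10436 CPM in mesangial-like cells and to 39890.1, 33460.2 and 14549 in endothelial-like cells of the control, MRL/lpr and treated libraries. Among mesangial-like cells with under 1% of their UMIs from the list, Cxcl1 stood at 80.5, 432 and 255 CPM. Among those with 1 to 2% it stood at 332, 2991 and 459 CPM, and among those with 2 to 4% at 1814, 3549 and 696 CPM. At 4% or more the control library reached 3202 and the MRL/lpr library 2992 CPM, with under 20 treated cells. Within a bracket the treated library thus stayed below the MRL/lpr library. It lay above the control library under 1% and at 1 to 2%, without overlap of intervals, and below it at 2 to 4%. The control library lay far below the MRL/lpr library in the lower brackets and slightly above it in the highest. Cells were not fully matched within brackets. Median shares in the control, MRL/lpr and treated libraries were 0.268, 0.513 and 0.677% in the lowest bracket. They were 1.48, 1.74 and 1.27% in the next, and 3.28, 2.77 and 2.19% at 2 to 4%. At 4% or more they were 4.78% in the control and 4.49% in the MRL/lpr library. From the lowest bracket the log2 ratios of MRL/lpr over control were 2.42 (1.79 to 3.06), 3.17 (3.01 to 3.33), 0.97 (0.94 to 1.00) and -0.098 (-0.17 to -0.023), and those of treated over MRL/lpr -0.76 (-1.19 to -0.30), -2.70 (-2.78 to -2.63) and -2.35 (-2.53 to -2.18), the first of them from 845 treated and 38 MRL/lpr cells. The list's part in the difference between whole classes was not tested.

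**Figure D2:**
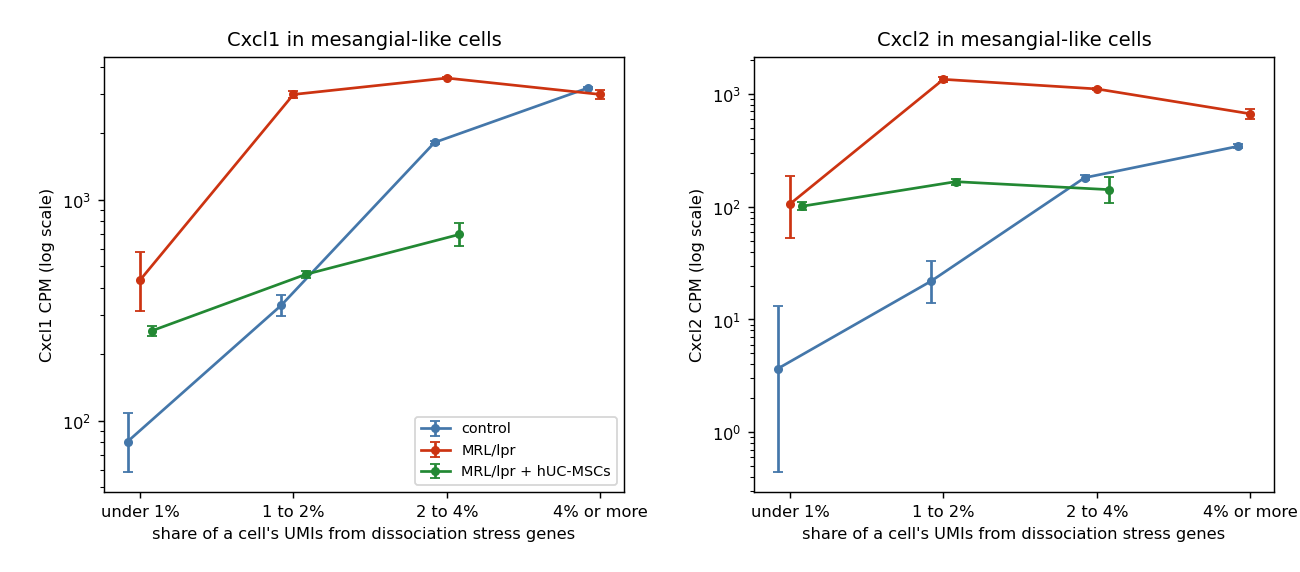
Cxcl1 (left) and Cxcl2 (right) in mesangial-like cells of each library, in CPM on a log axis, against the share of a cell's UMIs that came from 11 dissociation stress genes; points are levels of all cells in a bracket and bars exact 95% Poisson intervals. Both genes are lowest in the first bracket of every library, and the control line starts lowest and climbs most.

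Cxcl2 encodes the other CXCR2 ligand studied. Its highest level was in neutrophil-like cells, at 3234 (2823 to 3689) CPM in the control library, 5657 (5489 to 5828) in the MRL/lpr library and 5032 (4874 to 5193) in the treated library, from 29, 289 and 307 cells. The MRL/lpr library was the highest and the control library the lowest, with log2 ratios of 0.81 (0.61 to 1.01) for MRL/lpr over control and -0.17 (-0.23 to -0.11) for treated over MRL/lpr, the latter turning to 0.24 when cells were classed by cluster. Thinned cells held a Cxcl2 UMI in 48.3%, 76.5% and 70.03% (unthinned 55.2%, 85.1% and 75.9%, median depths 1272, 1829 and 1795 UMIs), against 0.119%, 6.197% and 8.14% of podocyte-like cells (unthinned 1.07%, 17.4% and 18.2%). Patrolling monocyte-like cells stood at 759, 2345 and 1955 CPM and inflammatory monocyte-like cells at 1009.8, 863 and 1132 CPM, the latter without a steady order. Macrophage-like cells followed at 525 (503 to 548) in the MRL/lpr library and 386 (369 to 405) in the treated library. Within them, Cd5l macrophage-like cells stood at 581 and 444 CPM and Trem2 Gpnmb macrophage-like cells at 690 and 332. The remaining macrophage-like cells went the other way, at 420 (389 to 453) and 514 (475 to 556) CPM. The make-up of the class differed between these libraries, with cell numbers given under Cx3cr1 below. Empty droplets held 134, 352 and 327 CPM, and the neutrophil and monocyte classes lay above them in each library.

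Mesangial-like cells also held Cxcl2, at 246 (239 to 254) CPM in the control library, 1103 (1083 to 1124) in the MRL/lpr library and 134 (128 to 141) in the treated library. The control and MRL/lpr levels lay above those of empty droplets and the treated level below. The log2 ratio was 2.16 (2.11 to 2.21) for MRL/lpr over control and -3.04 (-3.11 to -2.96) for treated over MRL/lpr, 8.21-fold lower. Over the brackets of stress share from the lowest, Cxcl2 stood at 3.66, 21.9, 181 and 344 CPM in the control library, at 106, 1346, 1107 and 666 in the MRL/lpr library and at 101, 167 and 142 in the treated library. It thus climbed over all brackets in the control library, while in the others it was highest in the bracket of 1 to 2%, with overlapping intervals of the upper brackets in the treated library. The treated library lay above the control library under 1% and at 1 to 2%, while at 2 to 4% their intervals overlapped. The log2 ratios of treated over MRL/lpr were -0.064 (-0.91 to 0.95), -3.01 (-3.13 to -2.90) and -2.97 (-3.37 to -2.59), so that below 1% the libraries did not differ beyond the interval. Both chemokines were counted in the same cells, since 48.04, 66.9 and 38.4% of mesangial-like cells with a Cxcl1 UMI had a Cxcl2 UMI too, against 1.2000, 21.1 and 18.7% of those without, a comparison that deeper cells raise by itself. In endothelial-like cells Cxcl2 stood at 21.9, 94.9 and 90.04 CPM, under empty droplets in every library.

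Where Cxcl2 UMIs came from differed between libraries. Mesangial-like cells held 64.2%, 26.8% and 4.93% of them in the control, MRL/lpr and treated libraries, neutrophil-like cells 3.41%, 10.3% and 11.96%, and patrolling monocyte-like cells 2.38%, 24.1% and 30.7%. Such shares move with the number of cells captured in a class, here 58, 1034 and 1534 patrolling monocyte-like and 1141, 1648 and 1612 mesangial-like cells.

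**Figure D3:**
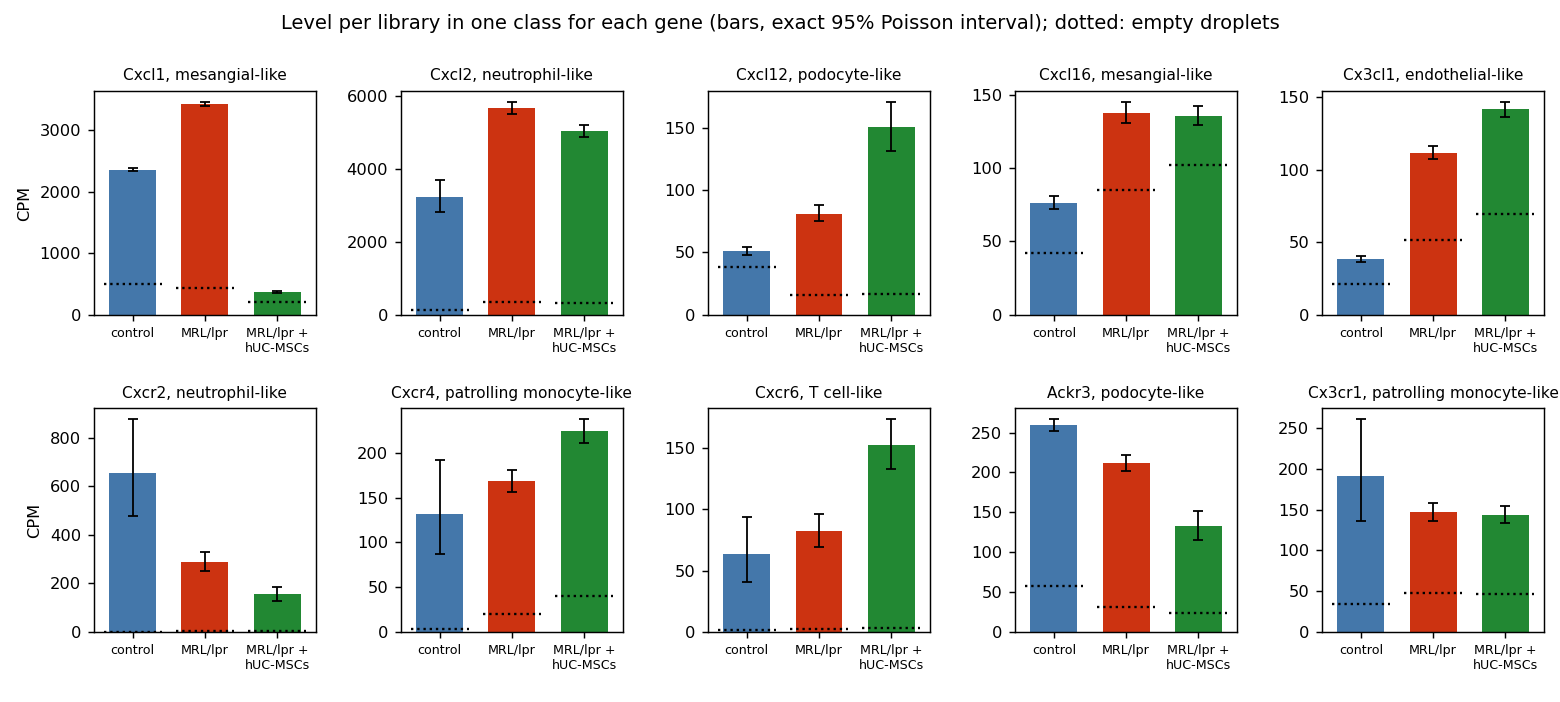
Level of each gene in 1 class per library, in CPM, with bars for levels, whiskers for exact 95% Poisson intervals and dotted lines for the level in empty droplets. Cxcl1 in mesangial-like cells is lowest in the treated library and there closest to the dotted line, Cx3cl1 in endothelial-like and Cxcl12 in podocyte-like cells are highest in the treated library, and Cxcr2 in neutrophil-like and Ackr3 in podocyte-like cells are highest in the control library.

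Cxcl12 (chr6:117168535-117181367, plus strand) encodes the ligand of CXCR4 and ACKR3. Among whole classes it was highest in podocyte-like cells, the epithelial cells that wrap the capillaries. Its level there was 50.97 (47.7 to 54.4) CPM in the control library, 81.1 (74.8 to 87.7) in the MRL/lpr library and 150.2 (132 to 171) in the treated library. The order of libraries was control, MRL/lpr, treated, with log2 ratios of 0.67 (0.52 to 0.82) and 0.89 (0.67 to 1.11) for the successive steps. Cluster 1, named podocyte-like, held 92.3%, 72.96% and 54.7% of the class, while the unnamed cluster 19 held 25.97% in the treated library. Over named clusters alone the ratios were 0.68 and 0.96. The class held 2514, 1065 and 258 cells, so the treated level rests on the fewest. Thinned podocyte-like cells held a Cxcl12 UMI in 4.93%, 5.63% and 10.9% (unthinned 22.6%, 31.5% and 28.3%), against 0.263%, 0.303% and 0.496% of mesangial-like cells (unthinned 2.28%, 1.21% and 1.55%), with the depths given above for both classes.

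Arterial endothelium-like cells, a part of the endothelial-like class, stood at 59.3 (45.1 to 76.5) CPM in the control library, 43.8 (32.8 to 57.3) in the MRL/lpr library and 27.8 (19.8 to 37.8) in the treated library. The control interval overlapped that of podocyte-like cells, while those of the other libraries did not. Empty droplets held 38.2, 15.6 and 16.6 CPM, and the whole endothelial-like class stood below them at 5.56, 6.46 and 5.46 CPM. Loop or distal tubule-like cells reached 76.8 (48.1 to 116) CPM in the treated library, from 23 cells. Podocyte-like cells held 74.1%, 58.3% and 34.97% of all Cxcl12 UMIs, in the order of the number of these cells.

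Cxcl16 (chr11:70453983-70459984, minus strand) encodes the membrane-bound ligand of CXCR6. Its exons overlap those of Zmynd15 on the other strand, so its UMIs could only be told apart from that gene's if strand was used in counting. Macrophage-like cells had the highest level where they were captured, 334 (317 to 353) CPM in the MRL/lpr library and 293 (278 to 309) in the treated library. The log2 ratio was -0.19 (-0.30 to -0.080). Within them, Trem2 Gpnmb macrophage-like cells stood at 400 (333 to 475) and 282 (264 to 301) CPM, and Cd5l macrophage-like cells at 340 and 274. The remaining macrophage-like cells stood at 314 (287 to 342) and 324 (293 to 357) CPM, with overlapping intervals. The make-up of the class differed between these libraries. Thinned macrophage-like cells held a UMI in 25.3% and 24.1% (unthinned 71.2% and 59.2%, median depths 5793 and 4342 UMIs), against 1.596% and 3.88% of podocyte-like cells (unthinned 6.48% and 7.75%).

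Mesangial-like cells stood at 76.4 (72.3 to 80.7) CPM in the control library, 138 (131 to 145) in the MRL/lpr library and 136 (129 to 142) in the treated library. They came next after macrophage-like cells in the MRL/lpr library only. In the treated library proximal tubule-like cells lay between these classes. The control library was the lowest and the other libraries did not differ beyond their intervals, with log2 ratios of 0.85 (0.74 to 0.96) for MRL/lpr over control and -0.022 (-0.13 to 0.082) for treated over MRL/lpr. Collecting duct-like cells at 102, 123 and 77.04 CPM and proximal tubule-like cells at 30.8, 116 and 168 CPM were near them in order, except that the treated collecting duct-like and control proximal tubule-like levels lay below empty droplets. In the control library, where macrophage-like cells were too few, collecting duct-like cells were the highest, followed by inflammatory monocyte-like cells at 84.1 (48.1 to 137) CPM, and their intervals overlapped. Endothelial-like cells stood at 41.2, 78.8 and 70.002 CPM, at or under the 41.96, 84.7 and 102 CPM of empty droplets, although their log2 ratio of MRL/lpr over control was 0.94 (0.83 to 1.04). Cxcl16 in mesangial-like cells of the MRL/lpr library did not climb with the stress share, at 144, 151, 139 and 89.7 CPM over the brackets from the lowest.

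Cx3cl1 (chr8:94772009-94782427, plus strand) encodes fractalkine. It was highest in endothelial-like cells, at 38.5 (36.2 to 40.8) CPM in the control library, 112 (107 to 116) in the MRL/lpr library and 142 (137 to 147) in the treated library. The steps did not overlap, and the log2 ratio was 1.54 (1.43 to 1.64) for MRL/lpr over control, 2.903-fold, and 0.34 (0.26 to 0.42) for treated over MRL/lpr. A Cx3cl1 UMI was found in 16.02%, 34.9% and 36.6% of endothelial-like cells (median depths 4357, 3910 and 3280 UMIs) and in 3.76%, 10.5% and 12.7% when thinned. For podocyte-like cells the shares were 3.699%, 10.5% and 12.8%, or 0.517%, 2.25% and 0.775% thinned. Empty droplets also went up, from 21.3 to 51.4 and 69.8 CPM, and stayed below the endothelial-like level.

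Endothelial-like cells too came from different clusters, with clusters 2 and 3 holding 48.01% and 45.5% in the control library, cluster 8 79.8% in the MRL/lpr library, and cluster 9 and the unnamed cluster 10 41.4% and 38.9% in the treated library. The parts of the endothelial-like class kept the order of libraries for Cx3cl1. Glomerular capillary endothelium-like cells stood at 42.9, 124 and 143 CPM, arterial endothelium-like cells at 27.1, 59.5 and 108 CPM and venous or peritubular endothelium-like cells at 18.9, 72.8 and 134 CPM. The level was alike over the stress brackets in endothelial-like cells of the control and MRL/lpr libraries, with 38.6 and 40.7 CPM in the lowest and highest brackets of the control library and 126 and 114 in those of the MRL/lpr library. In the treated library it was 141, 144 and 140.5 CPM up to 4% and 34.6 (7.14 to 101) CPM above, the last from 25 cells and with an interval below the others. Adam10, a protease that cuts fractalkine, stood at 112, 137 and 199 CPM in this class and Adam17 at 56.9, 52.3 and 64.9 CPM.

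Mesangial-like cells held Cx3cl1 as well, at 27.3 (24.8 to 29.9) CPM in the control library, 62.2 (57.5 to 67.3) in the MRL/lpr library and 98.7 (93.1 to 105) in the treated library. All of these lay above empty droplets, with log2 ratios of 1.19 (1.02 to 1.37) and 0.67 (0.52 to 0.81) for the successive steps. Smooth muscle or renin-like cells held 0 UMIs in the control library (30 cells, which allows a level of up to 18.1 CPM at 3 counts), and 11.3 (2.33 to 33.05) and 96.4 (65.01 to 138) CPM in the MRL/lpr and treated libraries.

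Among receptors, Cxcr2 (chr1:74153989-74161246, plus strand) encodes the neutrophil receptor for CXCL1 and CXCL2. Neutrophil-like cells held 76.3%, 73.7% and 68.8% of its UMIs. Its level there was 656 (478 to 877) CPM in the control library, 289.7 (253 to 330.5) in the MRL/lpr library and 155 (128 to 185) in the treated library, and the intervals did not overlap. Cluster 15, named neutrophil-like, held 100%, 93.8% and 70.4% of these cells, while the unnamed cluster 19, led by the antibody genes Igha and Igkc, held 25.1% in the treated library. Free RNA was estimated at 9.55%, 23.2% and 30.8% of their UMIs, in the reverse order of Cxcr2, and the log2 ratios with it subtracted were -0.95 for MRL/lpr over control and -0.76 for treated over MRL/lpr. With clusters in place of gates they were -1.23 and -0.37. Without these steps, the log2 ratio was -1.18 (-1.65 to -0.68) for MRL/lpr over control and -0.90 (-1.24 to -0.57) for treated over MRL/lpr. The share of neutrophil-like cells with a UMI followed the same order, 68.97% (49.2 to 84.7%), 46.02% (40.2 to 51.96%) and 27.4% (22.5 to 32.7%), and 55.2%, 26.6% and 14.98% after thinning. Endothelial-like cells, set beside them for comparison, had a UMI in 0.07305%, 0.0984% and 0.151% (0.0183%, 0% and 0.0433% thinned). The next class in order, patrolling monocyte-like cells in the control library, stood at 4.899 (0.124 to 27.3) CPM, and empty droplets held 0.622, 2.08 and 2.88 CPM. Cxcl2, the gene of its ligand, was thus highest in the class that held the receptor's RNA, and the control library was lowest for Cxcl2 and highest for Cxcr2, with 29 neutrophil-like cells behind its values.

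Cxcr4 (chr1:128588199-128592293, minus strand) encodes the signalling receptor for CXCL12. It was highest in neutrophil-like and patrolling monocyte-like cells. Neutrophil-like cells stood at 204 (112 to 342) CPM in the control library, 177 (148 to 209) in the MRL/lpr library and 194 (164 to 228) in the treated library, with overlapping intervals. Patrolling monocyte-like cells stood at 132 (87.2 to 192) CPM in the control library, 168 (156 to 181) in the MRL/lpr library and 225 (212 to 238) in the treated library, and the log2 ratio of treated over MRL/lpr was 0.41 (0.28 to 0.55). The intervals of these classes overlapped in each library. NK cell-like cells, which kill infected cells, held Cxcr4 at 106 (54.97 to 186) CPM in the control library, 24.7 (9.07 to 53.8) in the MRL/lpr library and 18.7 (3.86 to 54.7) in the treated library. Only the control interval lay above empty droplets (2.95, 19.4 and 40.3 CPM), while the MRL/lpr and treated intervals held their level. Inflammatory monocyte-like cells stood at 89.4, 92.7 and 109.5 CPM.

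Macrophage-like cells held Cxcr4 at 67.5 (59.7 to 76.04) CPM in the MRL/lpr library and 99.4 (90.5 to 109) in the treated library, a log2 ratio of 0.56 (0.34 to 0.78). Within them, Cd5l macrophage-like cells stood at 75.1 (63.8 to 87.8) and 217 (156 to 293) CPM, the latter from 26 cells, Trem2 Gpnmb macrophage-like cells at 81.2 (53.01 to 119) and 84.7 (74.8 to 95.5), and the remaining macrophage-like cells at 54.9 (44.02 to 67.6) and 119 (100.2 to 139), from 308 and 325 cells. Intervals overlapped for the Trem2 Gpnmb part and not for the others. T cell-like cells were alike in the libraries within their intervals, at 40.6 (23.2 to 65.95) CPM in the control library, 39.2 (30.8 to 49.2) in the MRL/lpr library and 43.2 (33.2 to 55.3) in the treated library, the last of which held the level of empty droplets. Endothelial-like cells stood at 1.66, 4.098 and 11.02 CPM and mesangial-like cells at 0.5899, 3.04 and 10.7 CPM, below the 2.95, 19.4 and 40.3 CPM of empty droplets. At the shares of free RNA given above, free RNA would supply 0.126, 2.04 and 3.35 CPM of the endothelial-like and 0.131, 2.16 and 5.07 CPM of the mesangial-like level. A Cxcr4 UMI was found in 32.8%, 43.8% and 46.3% of patrolling monocyte-like cells (13.8%, 15.2% and 21.2% thinned, median depths 3232, 3626 and 2950.5 UMIs) and in 0.119%, 2.35% and 4.26% of podocyte-like cells (0.0398%, 0.563% and 1.16% thinned).

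Cxcr6 (chr9:123806475-123811760, plus strand) encodes the receptor for CXCL16 and lies within Fyco1 without sharing an exon with it. T cell-like cells, 101, 808 and 607 in number, held 69.4%, 77.1% and 74% of its UMIs. The level was 63.5 (41.1 to 93.7) CPM in the control library, 82.1 (69.7 to 96.1) in the MRL/lpr library and 152 (133 to 174) in the treated library. The control and MRL/lpr intervals overlapped, and the log2 ratio of treated over MRL/lpr was 0.89 (0.59 to 1.20). A UMI was found in 15.8%, 11.6% and 24.7% of T cell-like cells (median depths 2912, 1844 and 1776 UMIs), or 5.94%, 5.82% and 12.5% thinned, against 0.0183%, 0.0738% and 0.151% of endothelial-like cells (0%, 0% and 0.0216% thinned). NK cell-like cells, 34, 75 and 56 in number, held 0 Cxcr6 UMIs, which allows up to 26.6, 12.4 and 18.7 CPM at 3 counts.

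The T cell-like class was also made of different clusters. Cluster 12, which counts Cxcr6 among its leading genes, held 69.3%, 45.05% and 82.5% of T cell-like cells in the control, MRL/lpr and treated libraries. Cluster 20, unnamed and led by Myb and Ccr7, held 52.6% in the MRL/lpr library. Over named clusters alone the log2 ratio of treated over MRL/lpr for Cxcr6 was 0.32, and over clusters taken for their best-scoring class it was 1.24.

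Ackr3 (chr1:90203980-90216751, plus strand) encodes the atypical receptor that scavenges CXCL12. It was highest in podocyte-like cells, the class that also held most Cxcl12 in the control and MRL/lpr libraries, at 259 (252 to 267) CPM in the control library, 212 (202 to 222) in the MRL/lpr library and 132 (115 to 152) in the treated library. The intervals did not overlap, with log2 ratios of -0.29 (-0.37 to -0.21) for MRL/lpr over control and -0.68 (-0.89 to -0.47) for treated over MRL/lpr. Over named clusters alone they were -0.21 and -0.61. Ackr3 and Cxcl12 therefore ran in opposite orders over the libraries in these cells. An Ackr3 UMI was found in 68.97%, 52.96% and 34.5% of podocyte-like cells and in 21.4%, 18.03% and 10.1% after thinning. Patrolling monocyte-like cells had one in 0%, 2.13% and 1.69% (0%, 0.484% and 0.587% thinned). Collecting duct-like cells stood at 74.9, 51.4 and 49.1 CPM, above the 56.9, 30.9 and 23.7 CPM of empty droplets in each library. They were next in order in the control library, while proximal tubule-like cells at 51.7 CPM in the MRL/lpr library and endothelial-like cells at 51.4 CPM in the treated library lay level with them within the intervals.

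Endothelial-like cells showed the reverse order for Ackr3, at 4.18 (3.47 to 4.99) CPM in the control library, 15.4 (13.8 to 17.2) in the MRL/lpr library and 51.4 (48.4 to 54.6) in the treated library. Only the treated level lay above empty droplets, whose level went down over the same libraries. The log2 ratio of treated over MRL/lpr was 1.74 (1.56 to 1.92), 3.33-fold, and that of MRL/lpr over control 1.88 (1.58 to 2.20). Thinned endothelial-like cells held a UMI in 0.365%, 1.55% and 4.33% (unthinned 1.81%, 5.903% and 15.3%). Arterial endothelium-like cells stood at 1.005 (0.0254 to 5.599) CPM in the control library, 8.27 (3.96 to 15.2) in the MRL/lpr library and 52.1 (40.98 to 65.3) in the treated library, with a log2 ratio of 2.66 (1.70 to 3.77) for treated over MRL/lpr. Mesangial-like cells went from 14.7 (12.98 to 16.7) and 18.2 (15.6 to 20.97) to 42.6 (38.9 to 46.4) CPM. Endothelial-like cells held 2.18%, 11.2% and 43.3% of all Ackr3 UMIs and podocyte-like cells 85.5%, 56.9% and 8.505%, shares that also move with the 2514, 1065 and 258 podocyte-like cells captured.

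Cx3cr1 (chr9:119901616-120069879, minus strand) encodes the fractalkine receptor, and its exons overlap Gm33858 on the other strand. Its span also overlaps Wdr48, Gorasp1, Ttc21a, Csrnp1, 1700019L13Rik, Gm47043, Gm49427 and Xirp1, without overlap of exons. Patrolling monocyte-like cells had the highest level, 191 (136 to 261) CPM in the control library, 147 (135 to 159) in the MRL/lpr library and 144 (133 to 154) in the treated library. The MRL/lpr and treated levels did not differ beyond their intervals, with a log2 ratio of -0.030 (-0.19 to 0.13), and the control level rests on 58 cells. Macrophage-like cells stood at 96.9 (87.5 to 107) CPM in the MRL/lpr library and 41.997 (36.3 to 48.4) in the treated library, a log2 ratio of -1.21 (-1.46 to -0.95). The ratio had the same sign in Cd5l macrophage-like cells, -1.01 (-2.09 to -0.10), in Trem2 Gpnmb macrophage-like cells, -0.87 (-1.65 to -0.0029), and in the remaining macrophage-like cells, -0.32 (-0.71 to 0.050), each smaller than the ratio of the whole class. The make-up of the class differed, since Cd5l macrophage-like cells numbered 289 in the MRL/lpr and 26 in the treated library, Trem2 Gpnmb macrophage-like cells 48 and 523, and the remaining cells 308 and 325. NK cell-like cells of the MRL/lpr library stood at 90.6 (56.8 to 137) CPM, overlapping the macrophage-like level. The treated macrophage-like level lay near the 46.4 CPM of empty droplets in that library.

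Cx3cr1 was also counted in endothelial-like cells, at 54.999 (52.3 to 57.8) CPM in the control library, 63.3 (59.9 to 66.8) in the MRL/lpr library and 70.98 (67.4 to 74.7) in the treated library, above the 34.04, 47.9 and 46.4 CPM of empty droplets. These cells held 63.7%, 36.5% and 38.1% of all Cx3cr1 UMIs. A UMI was found in 23.4%, 25.6% and 24.8% of endothelial-like cells (5.205%, 6.69% and 7.36% thinned), against 5.73%, 8.08% and 6.98% of podocyte-like cells (0.796%, 1.03% and 2.33% thinned), which were deeper. Endothelial-like cells without a single UMI from 22 myeloid markers numbered 2706, 1003 and 1013, and held Cx3cr1 at 56.7, 75.1 and 78.9 CPM. Podocyte-like cells chosen in the same way held 7.94, 10.7 and 0 CPM, the last from 100 cells. Mesangial-like cells chosen so, 273, 498 and 282 in number, held 30.5 (21.7 to 41.7), 19.3 (13.1 to 27.5) and 27.5 (17.8 to 40.6) CPM.

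The ratio of Cx3cr1 to the sum of 6 patrolling monocyte markers was compared between classes. It was 0.06903, 0.0602 and 0.0654 in patrolling monocyte-like cells of the control, MRL/lpr and treated libraries. In empty droplets it was 1.82, 0.216 and 0.174, and in endothelial-like cells 30.6, 3.29 and 1.498. In each library the ratio in endothelial-like cells was thus above those of patrolling monocyte-like cells and of empty droplets. So were other ratios, such as 3.5000, 0.2897 and 0.198 in erythroid-like cells of the control, MRL/lpr and treated libraries. Podocyte-like cells had such ratios too, 0.434 and 0.202 in the MRL/lpr and treated libraries. The 6 markers, like the inflammatory monocyte markers used next, also gate the classes. This selects for high sums in patrolling monocyte-like cells and low sums in other classes. The order of these ratios was thus largely set by the gate, and no conclusion is drawn from it. Against the sum of the inflammatory monocyte markers, the ratio was 0.237, 0.174 and 0.157 in endothelial-like cells, 0.0963, 0.115 and 0.159 in patrolling monocyte-like cells and 0.2096, 0.1296 and 0.121 in empty droplets. These markers summed to 232, 363 and 453 CPM in endothelial-like cells and 162, 370 and 384 CPM in empty droplets. The ratio therefore does not single out monocyte RNA in endothelial-like cells, and no conclusion is drawn from it. At its estimated shares, free RNA would supply 1.45, 5.02 and 3.85 CPM of the endothelial-like Cx3cr1 level in the control, MRL/lpr and treated libraries.

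**Figure D4:**
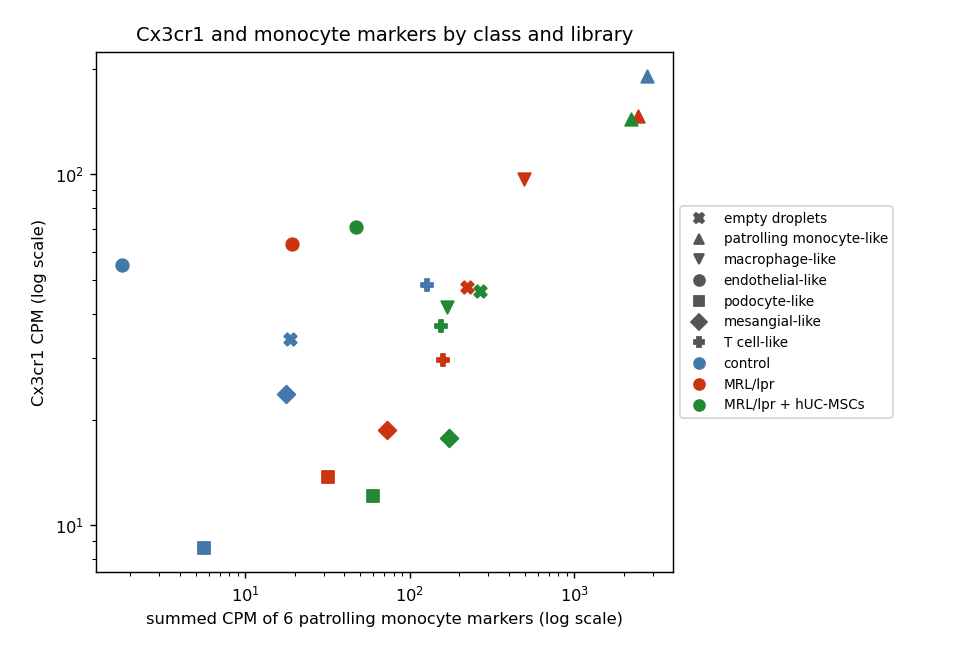
Cx3cr1 level in CPM (vertical, log axis) against the summed CPM of 6 patrolling monocyte markers (horizontal, log axis), with 1 point per class and library, marker shapes for classes and colours for libraries. Endothelial-like points lie at the left with Cx3cr1 between 55 and 71 CPM, and patrolling monocyte-like points at the right. The markers on the horizontal axis also gate the classes, so this placing was largely set by the gate.

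Members were then compared together in endothelial-like and mesangial-like cells, with genes of at least 20 UMIs over both libraries counted and at least 2-fold as the size called. In endothelial-like cells 8 of 10 members could be counted, and 5 (Cxcl1, Cxcl2, Cx3cl1, Cxcr4 and Ackr3) were at least 2-fold higher in the MRL/lpr library than in the control library, when 12.3% of all 15105 genes were. None of the 8 was 2-fold lower, when 6.06% of all genes were. Of the 5, Cx3cl1 alone lay above empty droplets in both libraries. The median log2 ratio of the members was 1.18, and that of all genes 0.045.

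In mesangial-like cells 3 of 8 members (Cxcl2, Cx3cl1 and Cxcr4) were 2-fold higher in MRL/lpr than in control, when 11.0% of 14012 genes were, and 0 were lower, when 5.99% of genes were. The median log2 ratio was 0.69 for the members and 0.012 for all genes. Cxcl2 and Cx3cl1 were above empty droplets in both libraries, and Cxcr4 in neither the control nor the MRL/lpr library.

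For treated over MRL/lpr, 2 of 8 members in endothelial-like cells (Cxcr4 and Ackr3) were 2-fold higher, when 6.67% of 15119 genes were, and 1 (Cxcl1) was lower, when 4.74% of genes were. In mesangial-like cells 2 of 8 (Cxcr4 and Ackr3) were higher, when 4.54% of 13874 genes were, and 2 (Cxcl1 and Cxcl2) were lower, when 5.81% were. Cxcr4 in both classes and Cxcl1 in endothelial-like cells lay below empty droplets in both libraries, and Ackr3 lay above them in the treated library alone. In mesangial-like cells Cxcl1 lay above them in both libraries and Cxcl2 in the MRL/lpr library alone. The medians were 0.045 and 0.10 for the members and 0.13 and 0.13 for all genes, so that relative to all genes of the class the log2 ratio of Cxcl1 in mesangial-like cells was -3.34. Both comparisons use the MRL/lpr library, which ties the ratios of one to those of the other.

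**Figure D5:**
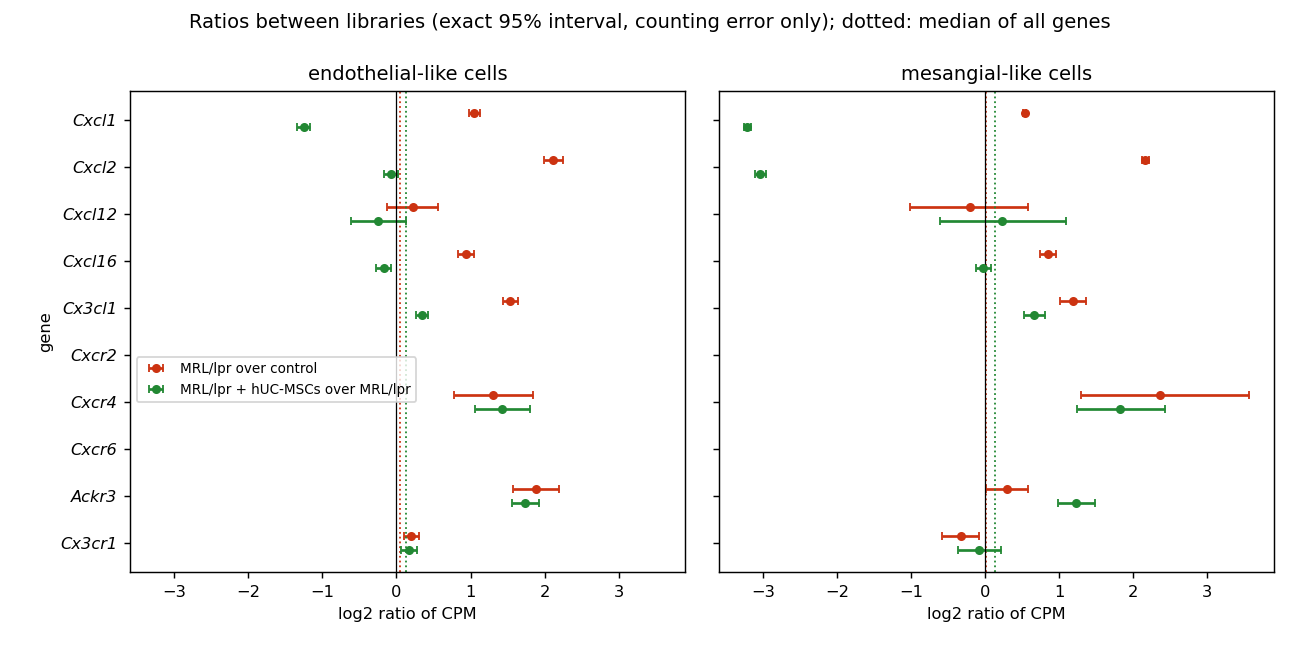
Log2 ratio of CPM between libraries (horizontal) for members with at least 20 UMIs in endothelial-like (left) and mesangial-like (right) cells, with exact 95% intervals; red points are MRL/lpr over control, green points treated over MRL/lpr, and dotted lines the medians of all genes. Cxcl1 and Cxcl2 in mesangial-like cells lie far to the left in green, and Cx3cl1 lies to the right in both colours and both panels.

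Other genes of the pathway were read from 4 lists, for which the same shares of all genes hold: 12.3% higher and 6.06% lower in endothelial-like and 11.0% and 5.99% in mesangial-like cells for MRL/lpr over control, and 6.67% and 4.74%, then 4.54% and 5.81%, for treated over MRL/lpr. Of 13 further CXC chemokine and receptor genes, those past 2-fold for MRL/lpr over control were 3 higher and 0 lower of 8 in endothelial-like cells. In mesangial-like cells they were 4 higher and 1 lower of 8. For treated over MRL/lpr they were 0 higher and 2 lower of 7 and 1 higher and 2 lower of 7 in these classes. Cxcl10, a ligand of CXCR3 induced by interferon, stood at 362, 471 and 128 CPM in endothelial-like cells of the control, MRL/lpr and treated libraries. Cxcl9, another such ligand, stood at 5.66, 19.8 and 169.8 CPM in mesangial-like cells, the reverse of Cxcl1 in the treated library. It was the first leading gene of the unnamed cluster 14, which held 29.7% of mesangial-like cells in the treated and 5.43% in the control library. Cxcl13, a B cell attractant, stood at 173, 256 and 157 CPM in mesangial-like cells. Cxcl5, a further CXCR2 ligand, reached 0.177, 5.103 and 1.604 CPM, far below Cxcl1 on the same CPM scale.

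Genes that process the members' proteins or carry their signals (proteases, G proteins, arrestins and kinases) had 3 higher and 0 lower of 13 in endothelial-like and 1 higher and 0 lower of 13 in mesangial-like cells for MRL/lpr over control, and 1 higher and 1 lower of 13 and 0 higher and 1 lower of 13 for treated over MRL/lpr. A list of 12 genes that NF-kB induces had 7 higher and 0 lower of 12 in endothelial-like cells for MRL/lpr over control. In mesangial-like cells it had 6 higher and 0 lower of 12, beside 12.3% and 11.0% of all genes higher in these classes. For treated over MRL/lpr it had 1 higher and 1 lower of 12 and 0 higher and 6 lower of 12, beside 4.74% and 5.81% of all genes lower. In mesangial-like cells Nfkbia, Il6 and Tnfaip3 had log2 ratios of -2.64, -2.87 and -2.39, while Ccl2, a monocyte chemokine, had -0.23. Whether NF-kB had a part in the levels of Cxcl1 and Cxcl2 was not tested. The 11 stress genes had 0 higher and 0 lower of 11 and 2 higher and 2 lower of 11 for MRL/lpr over control, and 0 higher and 8 lower of 11 and 1 higher and 9 lower of 11 for treated over MRL/lpr, the higher one in mesangial-like cells being Hspa1b at 1.60.

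Genes with the pattern most like each member were ranked by Pearson's r of log2(CPM + 1) over 36 pairs of class and library, among 12891 genes, as a description only, since the pairs share libraries and depth. Nearest to Cxcl1 were Il6 (r = 0.83), Osmr (0.82) and Shc3 (0.81), and nearest to Cxcl2 were Irak3 (r = 0.90), Lst1 (0.89) and Cd14 (0.88). Cxcl12 was nearest to Auts2 (r = 0.81), Schip1 (0.79) and Tmem159 (0.79), and Cxcl16 to Zmynd15 (r = 0.78), Mt1 (0.76) and Mt2 (0.74), the first being the gene on the other strand. For Cx3cl1 they were Ptprg (r = 0.87), Thbs2 (0.87) and Tcf4 (0.86). Cxcr2 went with Mmp9 (r = 0.95), Cstdc5 (0.94) and Il1f9 (0.93), of which Mmp9 is a gate marker. Cxcr4 went with Il10ra (r = 0.96), Plek (0.96) and Cd44 (0.96), and Cxcr6 with Thy1 (r = 0.92), Cd3e (0.92) and Cd8b1 (0.92), of which Cd3e is a gate marker. Ackr3 was nearest to Smo (r = 0.91), Fnbp1l (0.87) and Prkci (0.86), and Cx3cr1 to Rap1b (r = 0.92), Adgre5 (0.92) and Prdm1 (0.91).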

How the data were processed

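Per the labels and the study's methods, 3 droplet single-cell libraries of enzymatically isolated mouse glomeruli were made, and the authors aligned reads with STAR in Cell Ranger to mm10 (build and tools per the submitters' processing notes). The deposited values are raw UMI counts per gene and barcode, not normalized and with empty droplets, so the authors' cell filters and doublet removal are not in them. Whether counting used strand is not given in the sources used here.

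Barcodes with at least 1000 UMIs and at most 10% mitochondrial UMIs were kept, and 971, 1593 and 2201 likely doublets (control, MRL/lpr, treated) were taken out only in an alternative. Each cell was scored by the mean log of its marker levels (UMIs per 10000) less that of empty droplets, and took the best of 21 classes when at least 3 of its markers were detected and the second score was at most 0.5 of the best. Cells failing the latter were set aside as mixed. UMIs were summed per class and library. With 1 library per condition no model was fitted. The named genes were all members, the markers, Fas, 4 gene lists and the 3 genes most correlated with each member (pairs with at least 50 cells, genes with at least 500 UMIs). Members and lists were chosen with earlier results of these data known. The code for ratios was tested on simulated counts. Gene positions are from GENCODE M21, and of the files' gene identifiers 32158 were found there. Python 3.11.15, numpy 2.4.6, scipy 1.17.1, pandas 2.3.3 and scanpy 1.11.5 were used. The alternatives were other minimums of UMIs, mitochondrial share, markers or genes, removal of doublets, classes by cluster, free RNA subtraction and size factors, and others were added after seeing the data (mesangial-like cells without stromal markers, those in each of 4 brackets of stress UMIs, and clusters by their best-scoring class).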

Additional observations from a re-analysis of the deposited data

How the results depend on the processing

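Over 121 values and 1164 recomputed alternatives, the direction turned in mesangial-like cells with 4% or more stress UMIs for Cxcl1 (-0.098) and Ackr3 (-0.99), both MRL/lpr over control. No direction turned otherwise for the ratios of Cxcl1 and of treated over MRL/lpr for Cxcl2 in mesangial-like cells, of Cx3cl1 (MRL/lpr over control) and Ackr3 (treated over MRL/lpr) in endothelial-like cells and of Cxcr6 (treated over MRL/lpr) in T cell-like cells. Of the alternatives for these ratios and for the share of Cxcl1 UMIs in mesangial-like cells, 46 stayed within counting error while 34 moved. Of the others, 881 stayed, 190 moved and 12 reversed. Cell counts and depth set these limits, the cause of each shift was not tested unless the alternative itself shows it, and no alternative replaces a second library. For Cxcl1 in mesangial-like cells, the log2 ratio of MRL/lpr over control (0.54) became 0.51 with at most 5% mitochondrial UMIs, 0.88 without cells over 3000 genes, 0.50 by named clusters, 0.63 with free RNA subtracted, 0.71 without stromal markers, 2.42, 3.17 and 0.97 at under 1, 1 to 2 and 2 to 4% stress UMIs and 0.36 by best-scoring clusters. Its ratio of treated over MRL/lpr (-3.21) became -3.27 without cells over 3000 genes, -3.27 with free RNA subtracted, -0.76, -2.70 and -2.35 at under 1, 1 to 2 and 2 to 4% stress UMIs, -3.09 by best-scoring clusters and -3.34 with size factors. The same ratio of Cxcl2 (-3.04) became -0.064 at under 1% stress UMIs, -2.79 without cells over 3000 genes, -3.31 without doublets, -3.11 by named clusters (147 treated cells), -3.49 with free RNA subtracted, -2.69 without stromal markers, -2.66 by best-scoring clusters and -3.17 with size factors. With free RNA subtracted, Ackr3 in endothelial-like cells became 1.99 for treated over MRL/lpr. Cxcr6 in T cell-like cells became 0.32 by named and 1.24 by best-scoring clusters. The share of Cxcl1 UMIs in mesangial-like cells of the MRL/lpr library (65.1%) was 63.5% and 66.5% with minimums of 500 and 2000 UMIs, 66.3% with at most 5% mitochondrial UMIs, 62.1% without cells over 3000 genes, 72.7% without doublets, 58.7% with 5 markers required and 69.2% with free RNA subtracted. Other reversed values were Cxcl1 in podocyte-like cells for MRL/lpr over control, -0.41 by either clustering, and 4 ratios of Cxcl2 for treated over MRL/lpr: -0.090 in podocyte-like cells by either clustering, -0.12 with 5 markers and -0.070 by best-scoring clusters in inflammatory monocyte-like cells, 0.085 with 5 markers and 0.24 by either clustering in neutrophil-like cells, and -0.42 by named and -0.12 by best-scoring clusters in T cell-like cells. A lower minimum of UMIs adds ratios without changing any: 18 with 5 and 23 with none. No paired analysis was possible because each condition has 1 library.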

Other observations

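Some values belong to no comparison above. Cells that met no marker rule held 1.98%, 8.29% and 24.8% of all Cxcl2 UMIs in the control, MRL/lpr and treated libraries, and numbered 416, 1517 and 3950. Their leading genes included Lypd2, Gzma and Ncr1 in the MRL/lpr library. In the treated library they included Car1, Cdh6, Igfbp2, Slpi, Apoc2, F10 and Clec4n. Cxcl3, another CXCR2 ligand, stood at 113 and 146 CPM in neutrophil-like cells of the MRL/lpr and treated libraries. Cxcl14, a chemokine of epithelia and tissue macrophages, stood at 134 and 139.9 CPM in macrophage-like cells, and Pf4, a chemokine known from platelets, at 136 and 50.7 CPM. Cxcr3, the receptor for CXCL9 and CXCL10, stood at 48.2, 42.9 and 32.3 CPM in T cell-like cells of the control, MRL/lpr and treated libraries.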
